A study of Rattus norvegicus with 4 samples.

Results

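*Gadd45a*, *Gadd45b*, and *Gadd45g* are the genes of the GADD45 family (growth arrest and DNA damage-inducible 45). They were chosen by gene symbol, and all 3 were found in each of the 4 liver libraries among 16992 annotated genes. The values that led to this choice were the differences between the 6 h livers and their controls, in which *Gadd45b* and *Gadd45g* moved in opposite directions. These differences are therefore a description, and no test was made of them. Liver RNA (left lateral lobe) came from wild type male Wistar rats that were 6 weeks old at purchase and were kept for at least 1 week before use. One group inhaled sevoflurane (4.5%) for 6 h and another inhaled desflurane (6%) for 6 h, both in 50% oxygen. Each agent had its own control, a rat that inhaled the same agent for less than 1 minute and was sacrificed at the loss of consciousness. Each of these 4 conditions has 1 rat and 1 library, so the spread between rats is unknown and no p-value is given. Controls also received the agent, and food and water were withheld from all rats for 2 h before inhalation. A longer time without food in the 6 h rats cannot be told apart from the anesthesia itself.

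GADD45 proteins are small acidic nuclear proteins without a known enzymatic activity, and they act by binding other proteins. Known partners are the kinase MAP3K4, which starts the p38 and JNK stress kinase cascades, the CDK1-cyclin B complex, the CDK inhibitor p21, the replication clamp PCNA, and enzymes of DNA repair and demethylation. *Gadd45a* is a classical gene of the DNA damage response and is also induced by amino acid stress. *Gadd45b* is an early response gene to TGF-beta and NF-kB signaling that is induced in regenerating liver, and its protein can act as a coactivator of the xenobiotic receptor CAR. *Gadd45g* was originally described as a gene induced by cytokines.

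The 3 genes lie on different chromosomes, all on the minus strand. In rn6, the build of the deposited tables, *Gadd45a* spans chr4:97782512-97784814 (2303 bp), *Gadd45b* spans chr7:11646283-11648312 (2030 bp), and *Gadd45g* spans chr17:13391474-13393219 (1746 bp). Values are for whole genes, and no values for single exons or introns were used here. The promoter sequences below show what these paralogs with opposite values have in common near the start of transcription. They are from RefSeq (build GRCr8, at chr4:97486750-97487049, chr7:9430669-9430968, and chr17:13530302-13530601, minus strand), cover 250 bases before to 50 bases after the start, and are written 5′ to 3′. Capitals mark the octamer ATTTGCAT, the E-box CACGTG, the CCAAT box, and the TATA element TATAA, each searched on both strands.

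Gadd45a: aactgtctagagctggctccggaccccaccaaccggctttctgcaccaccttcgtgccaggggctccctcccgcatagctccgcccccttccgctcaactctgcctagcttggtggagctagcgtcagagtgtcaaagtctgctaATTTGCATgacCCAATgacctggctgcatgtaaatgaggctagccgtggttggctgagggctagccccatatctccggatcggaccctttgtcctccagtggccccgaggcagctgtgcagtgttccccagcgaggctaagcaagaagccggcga
Gadd45b: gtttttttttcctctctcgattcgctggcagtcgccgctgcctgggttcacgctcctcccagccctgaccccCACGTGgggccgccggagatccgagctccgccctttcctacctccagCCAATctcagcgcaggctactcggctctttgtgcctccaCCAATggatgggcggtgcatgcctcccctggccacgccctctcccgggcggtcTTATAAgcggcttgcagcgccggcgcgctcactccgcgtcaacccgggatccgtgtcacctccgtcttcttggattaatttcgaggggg
Gadd45g: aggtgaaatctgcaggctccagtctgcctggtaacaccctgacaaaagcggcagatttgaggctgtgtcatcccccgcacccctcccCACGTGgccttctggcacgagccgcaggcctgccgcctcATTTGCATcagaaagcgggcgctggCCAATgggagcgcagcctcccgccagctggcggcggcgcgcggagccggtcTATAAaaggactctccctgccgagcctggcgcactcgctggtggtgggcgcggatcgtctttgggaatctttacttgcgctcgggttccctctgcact

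The octamer was present in the promoters of *Gadd45a* and *Gadd45g*, with first bases at positions -105 and -124 from the start, and in 1.78% of the 33469 rat promoters of the same length. The E-box was present in *Gadd45b* and *Gadd45g*, at positions -178 and -163, and in 6.42% of all promoters. All 3 promoters contained a CCAAT box, as did 37.5% of all promoters, and *Gadd45b* contained 2. TATAA was found in *Gadd45b* (on both strands, at overlapping positions) and *Gadd45g*, and in 26.2% of all promoters. These matches did not separate *Gadd45b* from *Gadd45g* other than by the octamer, and no match was found in these windows for the cyclic AMP response element TGACGTCA, the AP-1 site TGANTCA, the STAT site TTCNNNGAA, or the forkhead site TGTTTAC. The G and C content was 60.3% in *Gadd45a* and 64.3% in both others, compared with a median of 51.7% for all promoters.

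Expression is given as TPM, a value per length of the gene that can be compared between genes. The libraries corresponded to between 4.47 and 5.40 Gb of aligned sequence, and annotated genes in the 4 tables added up to between 779824 and 813454 TPM. The median log2 ratio of a 6 h liver to its own control over 9136 genes was 0.05 with sevoflurane and 0.12 with desflurane, which is small beside the differences of *Gadd45b* and *Gadd45g*. All 10 hepatocyte markers examined (such as *Alb* and *Apoa1*) were present in every library. Following the rule of the study, upregulated and downregulated are used for genes that differed more than 2-fold between a pair of libraries and exceeded 2 TPM in the library with the larger value.

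*Gadd45b* was low in both controls and high in both 6 h livers. Its TPM value was 3.29 and 24.8 in the control and 6 h livers of sevoflurane, and 1.93 and 30.9 in those of desflurane. The controls and the 6 h livers did not overlap, as for 33.3% of 9993 genes that were higher in both 6 h livers, and the lower 6 h value was 7.54 times the higher control value. *Gadd45b* was upregulated 7.54-fold with sevoflurane and 16.0-fold with desflurane. Under the same rule, 2.23% of the 9754 genes that could be called were upregulated with sevoflurane and 2.79% of 9855 with desflurane. The 6 h livers were close to each other, with a ratio of 1.25 for desflurane to sevoflurane, whereas the desflurane control was 1.70-fold lower than the sevoflurane control. The larger fold with desflurane thus came with a lower control, and with the controls exchanged between the agents, the folds were 12.8 with sevoflurane and 9.40 with desflurane. Of the genes that could be called, 2.52% and 2.84% were upregulated in these exchanged comparisons.

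*Gadd45g* showed the opposite pattern, being high in both controls and low in both 6 h livers. Its TPM value was 43.2 and 5.17 in the control and 6 h livers of sevoflurane, and 97.6 and 2.43 in those of desflurane. Again the states did not overlap, as for 13.3% of genes that were lower in both 6 h livers, and the lower control value was 8.36 times the higher 6 h value. *Gadd45g* was downregulated 8.36-fold with sevoflurane and 40.1-fold with desflurane, and 3.3% and 1.48% of genes were downregulated under the same rule. Here the desflurane control was the higher one (2.26-fold above the sevoflurane control), and the desflurane 6 h liver was 2.12-fold below the sevoflurane 6 h liver, so that both ends contributed to the larger fold. With exchanged controls, the decreases were 18.9-fold with sevoflurane and 17.7-fold with desflurane, and 2.59% and 1.58% of genes were downregulated. Among all annotated genes, *Gadd45g* was at rank 899 by TPM in the desflurane control and at rank 9426 after 6 h of desflurane.

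*Gadd45a* differed less, and it moved differently with the agents when each was compared with its own control. Its TPM value was 8.31 and 14.5 in the control and 6 h livers of sevoflurane, and 22.1 and 13.0 in those of desflurane. Both 6 h values lay between the control values. The ratio to its own control was 1.75 with sevoflurane and 0.586 with desflurane, and neither passed the limits of the rule. With exchanged controls, the direction was reversed for both, to 0.657 with sevoflurane and 1.56 with desflurane. The largest difference of *Gadd45a* was that between the controls, in which it was 2.66-fold higher with desflurane, past the 2-fold limit like 1.17% of the 9756 genes in that comparison. The 6 h livers differed by a ratio of 0.891.

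**Figure D1:**
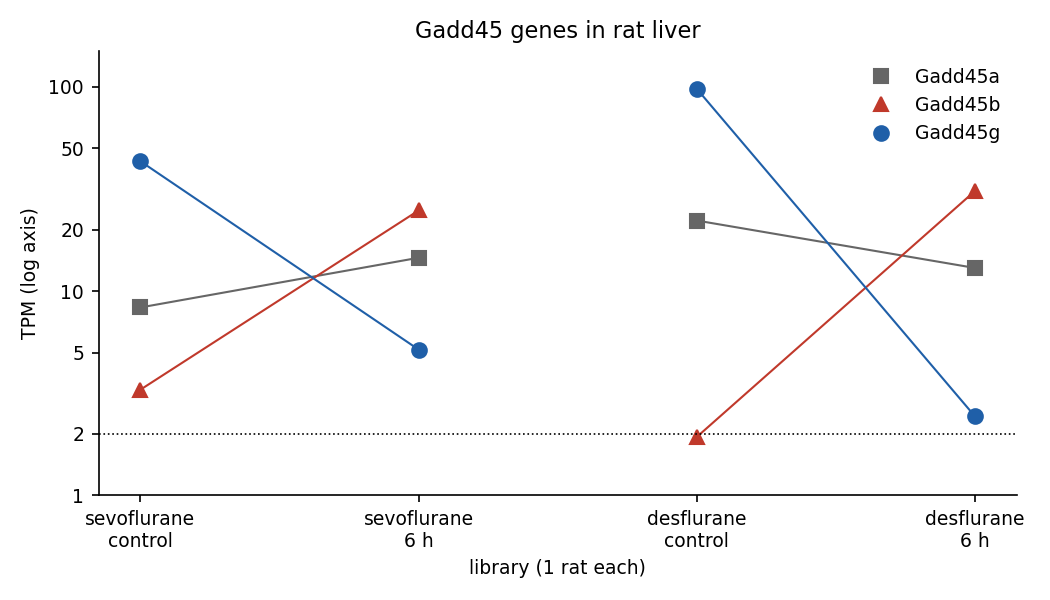
TPM values (log axis) of *Gadd45a*, *Gadd45b*, and *Gadd45g* in the 4 libraries, with 1 rat per library. Lines join each control to the 6 h liver of the same agent, the dotted line is the limit of 2 TPM, and the lines of *Gadd45b* (up to 24.8 and 30.9) and *Gadd45g* (down to 5.17 and 2.43) cross with both agents.

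**Figure D2:**
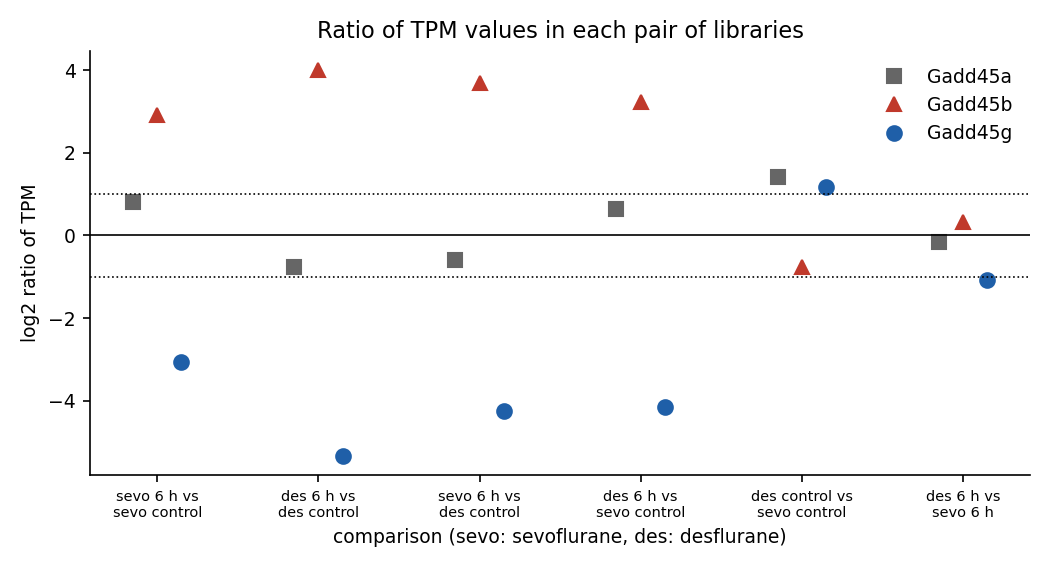
Log2 ratio of TPM values for each gene in 6 pairs of libraries, with dotted lines at a 2-fold difference. *Gadd45b* is above and *Gadd45g* below the 2-fold lines in all 4 comparisons of a 6 h liver with a control, and *Gadd45a* changes its sign with the choice of control.

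The order of the genes within a liver was therefore reversed at its ends. In both controls the order was *Gadd45g*, *Gadd45a*, *Gadd45b*, and in both 6 h livers it was *Gadd45b*, *Gadd45a*, *Gadd45g*. Without replicates, it is unknown which neighbors in these orders differ beyond the spread between rats. *Gadd45g* made up 78.8% and 80.2% of the summed TPM of the 3 genes in the sevoflurane and desflurane controls, and 11.6% and 5.25% in the respective 6 h livers. *Gadd45b* made up 6.00% and 1.59% of the sum in the controls and 55.7% and 66.7% after 6 h. The share of *Gadd45a* stayed between 15.2% and 32.7%. The sum itself was 54.8 and 44.5 TPM in the control and 6 h livers of sevoflurane, and 122 and 46.3 TPM in those of desflurane. The 6 h livers were thus similar in sum, and the desflurane control stood above the other 3 libraries.

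**Figure D3:**
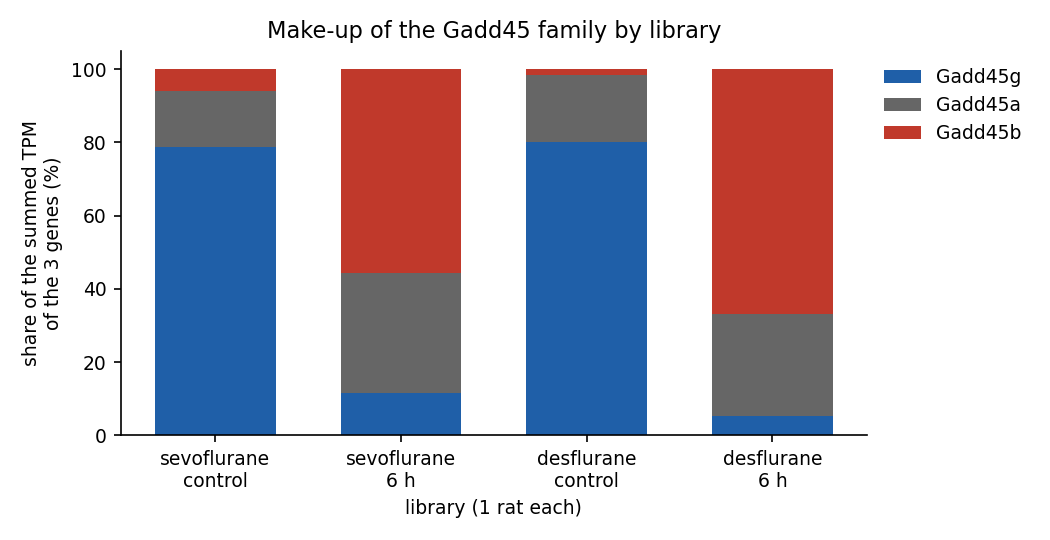
Share of each gene in the summed TPM of the family, in percent, for each of the 4 libraries. *Gadd45g* takes 78.8% and 80.2% of the bars of the controls, and *Gadd45b* takes 55.7% and 66.7% of those of the 6 h livers.

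The ratio of one gene to another within a library does not depend on how libraries are scaled. *Gadd45g* was 13.1 times as high as *Gadd45b* in the sevoflurane control and 50.5 times as high in the desflurane control. After 6 h, *Gadd45b* was 4.80 times as high as *Gadd45g* with sevoflurane and 12.7 times as high with desflurane. Hence the ratio of *Gadd45b* to *Gadd45g* was 63.0 times higher after 6 h than in the control for sevoflurane and 642 times higher for desflurane. With the controls exchanged, the values were 242 and 167, respectively. *Gadd45b* also gained relative to *Gadd45a*, by 4.31 times with sevoflurane and 27.3 times with desflurane, and *Gadd45a* gained relative to *Gadd45g*, by 14.6 and 23.5 times.

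The low values rest on little sequence. The coverage of *Gadd45b*, the mean number of reads over each base of its exons, was 5.91 and 3.62 in the sevoflurane and desflurane controls and 42.0 and 52.1 in the 6 h livers. That of *Gadd45g* was 77.6 and 183 in the controls and 8.75 and 4.10 in the 6 h livers of sevoflurane and desflurane. From the span of the gene, at most 7.34 kb of aligned sequence supports *Gadd45b* in the desflurane control, and at most 7.16 kb supports *Gadd45g* after 6 h of desflurane. Read counts were not used here, so counting intervals were not calculated, and the 40.1-fold and 16.0-fold differences are less precise than the TPM values of the higher states. The 642-fold change in the ratio of *Gadd45b* to *Gadd45g* with desflurane combines both differences, so it rests on both low values.

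The tables also list transcripts that StringTie assembled from the same reads. Each member was covered on its own strand by an assembled transcript in every library. For *Gadd45b*, the 6 h livers had a single assembled transcript of 2030 bp with the same ends and the same TPM value as the annotated gene. The sevoflurane control had 2 separate pieces of 1132 and 469 bp in its place, and the desflurane control had 1 piece of 1058 bp. *Gadd45g* was assembled over at least its whole span in all 4 libraries, at 44.2 and 98.6 TPM in the sevoflurane and desflurane controls. In the sevoflurane control, an assembled transcript on the opposite strand (1.04 TPM) overlapped 547 bp of *Gadd45a*, and none was found there in the other 3 libraries.

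Among the 9993 genes with a TPM value higher than 2 in any library, 0.57% were more than 2-fold higher in both 6 h livers than in both controls, and 0.33% were more than 2-fold lower. *Gadd45b* was among the former and *Gadd45g* among the latter. By the distance between the states (the lowest value of the higher state divided by the highest value of the lower one), *Gadd45g* was at rank 1 of the genes that were lower after 6 h. *Gadd45b* was at rank 4 of those that were higher, after *Cyp2b1* (61.3), *Colq* (13.6), and *Cyp2b2* (7.71). The cytochromes *Cyp2b1* and *Cyp2b2* are CAR targets so alike in sequence that reads of one may be counted for the other, and the controls of *Colq* were at 0.129 TPM or lower. Few families defined by symbol held paralogs called in opposite directions. Such a pair needs at least 2 called genes in a family, and families with 2 were not counted. Of 246 families whose symbols differ only in a final letter after a digit, and that had at least 2 members that could be called with sevoflurane, 24 contained a called gene and 1, the Gadd45 family, contained both an upregulated and a downregulated gene. With desflurane, the numbers were 255, 23, and 1, which was the same family. Since this family was chosen for this pattern, the count describes the background and is not a test.

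**Figure D4:**
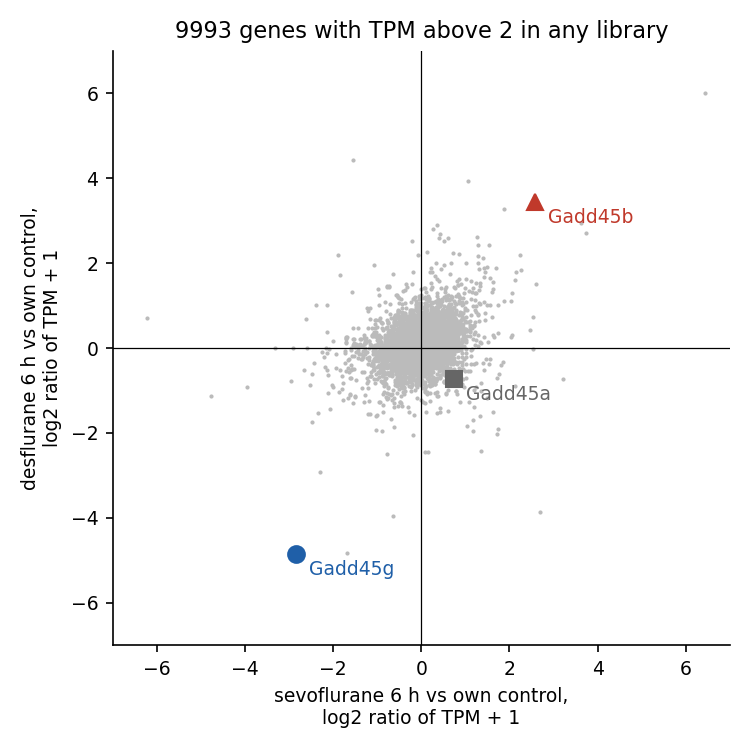
Log2 ratio of TPM + 1 to the own control with sevoflurane (x axis) and desflurane (y axis) for 9993 genes, shown as gray points. *Gadd45b* lies at the upper right and *Gadd45g* at the lower left of the cloud, and *Gadd45a* lies to the right of and below its center.

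Genes with the pattern most like that of each member were found by the Euclidean distance between log2(TPM + 1) values over the 4 libraries, after the mean of each gene was subtracted. With only 4 libraries, this is a description of shape. The 5 genes nearest to *Gadd45a* were *Lgals1* (distance 0.136), the stress cytokine *Gdf15* (0.169), the mitochondrial carrier *Slc25a30* (0.215), *Purg* (0.239), and the AP-1 subunit *Jun* (0.261). All were highest in the desflurane control, as *Gadd45a* was, and *Gdf15* had TPM values of 2.76, 6.12, 8.91, and 4.48 in the sevoflurane control, sevoflurane 6 h, desflurane control, and desflurane 6 h livers. Nearest to *Gadd45b* were the zinc finger gene *Zfp354a* (0.695), *Cyp2b2* (0.818), the lipid transporter *Mfsd2a* (0.983), the sodium channel subunit *Scnn1a* (1.05), and the aspartate aminotransferase *Got1* (1.16). *Zfp354a* had TPM values of 18.5, 70.5, 7.06, and 76.5 in the same order, and it shared with *Gadd45b* the lower value in the desflurane control. Among the 5 genes nearest to *Gadd45g* were the STAT5 feedback inhibitor *Cish* (1.83), *Tsc22d1* (2.21), the phosphate transporter *Slc34a2* (2.21), and the pro-apoptotic gene *Bmf* (2.42). These distances are larger than those of the genes nearest to *Gadd45a* and *Gadd45b*. *Cish* had TPM values of 21.9, 3.63, 70.0, and 8.40 in the same order. *Gadd45g* itself was the farthest from *Gadd45b* of all genes compared (distance 7.01).

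Genes around the family were examined in lists of partners, regulators, and targets. Of the 140 list genes found in the tables, 125 could be called with sevoflurane and 123 with desflurane. With sevoflurane, 20 were upregulated and 7 were downregulated, and with desflurane, 16 and 8. The share of upregulated genes was 16.0% and 13.0% with the respective agents, compared with 2.23% and 2.79% of all genes. That of downregulated genes was 5.60% and 6.50%, compared with 3.3% and 1.48% of all genes. The lists hold genes already known to differ in these libraries. As for *Gadd45a*, many of the values below depend on the control. Both values are given for many, but not all, of the genes whose call or direction changed with exchanged controls. A value given with its own control alone may therefore also depend on the control. The median log2 ratio of TPM + 1 was 0.08 with sevoflurane and 0.05 with desflurane, compared with 0.05 and 0.11 for all genes.

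Among the listed partners of GADD45 proteins that were found, only cyclin genes were called in the comparisons of a 6 h liver with a control. In the MAP kinase arm, none of the 9 genes that could be called passed the limits with either agent. *Map3k4*, the kinase that GADD45 proteins activate, had TPM values of 11.7, 12.0, 10.8, and 12.2 in the sevoflurane control, sevoflurane 6 h, desflurane control, and desflurane 6 h livers. *Mapk14*, which encodes p38 alpha, had 49.1, 49.3, 48.3, and 58.7 in this order, and *Gadd45gip1*, whose product binds GADD45 proteins, had 27.8, 29.5, 26.1, and 21.7. For these 3 genes, the highest value was at most 1.36 times the lowest over the 4 livers. Of 5 cell cycle partners, the cyclin genes *Ccnb1* and *Ccnb2* were upregulated with sevoflurane (3.39-fold and 2.39-fold, from 1.15 and 2.13 TPM), and none was called with desflurane. With exchanged controls this was reversed, with ratios of 1.07 and 1.21 with sevoflurane and upregulation of 2.23-fold and 2.51-fold with desflurane. Of the 7 DNA repair and demethylation partners listed, only *Tdg* and *Ing1* were found in the tables used here and neither was called. Most of this group was therefore not examined.

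Both of the other genes named for growth arrest and DNA damage also remained within the limits. The ratio of *Ddit3* (GADD153, also called CHOP) to its own control was 1.72 with sevoflurane and 1.03 with desflurane, and that of *Ppp1r15a* (GADD34) was 1.26 and 0.977. In a list of genes of the DNA damage response, 2 of 21 genes were upregulated with each agent and 1 was downregulated with desflurane. With exchanged controls, 1 was upregulated with each agent and 2 were downregulated with sevoflurane. The ubiquitin ligase gene *Mdm2* had a ratio of 1.20 with sevoflurane and 1.15 with desflurane. *Cdkn1a*, which encodes p21, had TPM values of 2.91, 4.47, 8.56, and 5.36 in the order given above, with its highest value in the desflurane control as for *Gadd45a*. *Plk3* was upregulated 2.69-fold and 3.92-fold with sevoflurane and desflurane, *Phlda3* was upregulated 2.22-fold with sevoflurane, and *Plk2* was downregulated 2.23-fold with desflurane. With exchanged controls, *Plk3* was still upregulated (2.78-fold and 3.79-fold), *Phlda3* had a ratio of 1.35 with sevoflurane, and *Plk2* was downregulated 2.34-fold with sevoflurane and had a ratio of 0.757 with desflurane.

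The response to amino acid stress is known to act on *Gadd45a*. Among the ATF4 and CHOP genes, 9 of 16 were upregulated with sevoflurane, with a median log2 ratio of 0.98, and 1 of 15 was upregulated and 2 were downregulated with desflurane, with a median of -0.33. The hormone gene *Fgf21* was upregulated 9.97-fold, asparagine synthetase (*Asns*) 3.81-fold, *Psat1* 3.64-fold, and *Trib3* 3.93-fold with sevoflurane. With desflurane, *Trib3* was upregulated 2.25-fold, and the ratios of *Fgf21*, *Asns*, and *Psat1* were 0.593, 0.783, and 0.628. With exchanged controls, 6 of 17 genes were upregulated and 1 was downregulated with sevoflurane (median 0.50). With desflurane, 2 of 14 were then upregulated and none was downregulated (median 0.19), and *Fgf21* turned to 2.01-fold upregulation. *Gadd45a* was higher with sevoflurane and lower with desflurane when compared with its own controls, although within the limits. Between the controls, 15 of the 17 genes of this list, whether or not they could be called, were higher with desflurane, as was *Gadd45a*. Of the 9756 genes that could be called, 4403 were higher. Of the 15 list genes that could be called in this comparison, 2 were upregulated, against 1.17% of all genes. Between the 6 h livers, 6 of 16 list genes were downregulated with desflurane relative to sevoflurane, against 1.17% of all genes. None was upregulated there, and the median log2 ratio was -0.63, whereas *Gadd45a* had a ratio of 0.891. A link to *Gadd45a* was not tested.

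NF-kB, TGF-beta, and CAR are known to be connected with *Gadd45b*. In the NF-kB list, none of 12 genes was upregulated with sevoflurane and *Cxcl1* was downregulated (from 6.77 to 1.02 TPM). With desflurane, *Nfkbiz* and *Il1b* were upregulated (2.46-fold and 2.08-fold) and *Bcl3* was downregulated 2.51-fold. With exchanged controls, neither *Nfkbiz* nor *Il1b* was called (1.80 and 1.05 with desflurane), and *Bcl3* and *Cxcl1* were downregulated with both agents. *Nfkbia*, the inhibitor induced by NF-kB, had a ratio of 1.61 with sevoflurane and 1.60 with desflurane. In the TGF-beta and SMAD list, *Id2* was downregulated 2.47-fold with desflurane and no other of the 12 genes was called with either agent, and the ratio of *Smad7* was 1.08 and 0.932. With exchanged controls, *Id2* was downregulated 2.62-fold with desflurane and 1 of the 12 genes was upregulated with sevoflurane. In the CAR list, 4 of 8 genes were upregulated with sevoflurane and 5 of 8 with desflurane, and 5 of 8 were upregulated with each agent with exchanged controls. *Cyp2b1* was upregulated 91.8-fold and 67.9-fold, *Por* 4.46-fold and 3.48-fold, and *Alas1* 4.41-fold and 3.04-fold. *Nr1i3*, the gene of CAR itself, was downregulated with sevoflurane (from 52.9 to 22.7 TPM) and was 37.3 and 42.1 TPM in the desflurane control and 6 h liver, and no call remained with exchanged controls.

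Cytokine signaling is known to induce *Gadd45g*, and *Cish* belongs to it. *Cish* was named above for its pattern in these same livers, so its likeness to *Gadd45g* was fixed by that choice. A link between them was not tested. In the JAK-STAT list, 4 of 13 genes were downregulated and 1 was upregulated with sevoflurane, and 2 were downregulated with desflurane. *Cish* was downregulated 6.04-fold with sevoflurane and 8.34-fold with desflurane, and *Socs3* was downregulated 4.06-fold and 2.48-fold. With exchanged controls, *Cish* was downregulated 19.3-fold and 2.61-fold, and *Socs3* was downregulated 6.48-fold with sevoflurane and had a ratio of 0.644 with desflurane. *Socs2* had TPM values of 38.8, 20.3, 96.4, and 61.2 in the order given above, lower than its own control but within the limits. With exchanged controls, *Socs2* was downregulated 4.74-fold with sevoflurane and had a ratio of 1.58 with desflurane. Like *Gadd45g*, *Cish* and *Socs2* were more than 2-fold higher in the desflurane control than in the sevoflurane control. Between the 6 h livers, they went the other way from *Gadd45g*. *Cish* and *Socs2* were upregulated 2.31-fold and 3.01-fold with desflurane relative to sevoflurane, and *Gadd45g* was downregulated 2.12-fold. In that comparison, 4 of 13 list genes were upregulated, against 2.76% of all genes, and none was downregulated. Of the 13 genes that could be called between the controls, 3 were called higher with desflurane and 1, *Bcl6*, was called lower. Of all genes, 1.17% were called in each direction. The third higher gene was *Onecut1* (4.02-fold). Unlike *Gadd45g*, *Onecut1* was upregulated with sevoflurane (2.23-fold, with a ratio of 0.554 to the other control). With desflurane, the ratio of *Onecut1* to its own control was 0.685, and it was upregulated 2.75-fold with the other control. *Bcl6* and *Pim1* were downregulated with sevoflurane (3.06-fold and 2.54-fold), and their ratios with desflurane were 1.45 and 1.29. *Bcl6* was 50.7 TPM in the sevoflurane control and 5.87 TPM in the desflurane control, so that with exchanged controls it was upregulated 2.82-fold with sevoflurane and downregulated 5.97-fold with desflurane, and *Pim1* was no longer called (0.571 with sevoflurane). In the FOXO list, 1 of 14 genes was upregulated and 2 were downregulated with sevoflurane, and 4 were upregulated with desflurane. With exchanged controls, 3 were upregulated and 2 downregulated with sevoflurane, and 2 were upregulated and 1 downregulated with desflurane. *Igfbp1* was upregulated 2.13-fold and 17.2-fold, and *G6pc* and *Pck1*, genes of gluconeogenesis, were upregulated 4.86-fold and 2.30-fold with desflurane with ratios of 1.09 and 0.908 with sevoflurane. In the desflurane control, *Igfbp1* and *Pck1* were 4.42-fold and 2.61-fold below the sevoflurane control. With exchanged controls, *Igfbp1* was upregulated 9.41-fold and 3.89-fold, *Pck1* was upregulated 2.37-fold with sevoflurane and had a ratio of 0.881 with desflurane, and *G6pc* was upregulated 2.70-fold with desflurane. The ratio of *Foxo1* was 1.08 with sevoflurane and 1.26 with desflurane.

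The members are often described as early response genes, and other genes of this kind were examined. Of 17 immediate early genes that could be called, 1 was upregulated with sevoflurane, and 2 were upregulated and 1 downregulated with desflurane. With exchanged controls, 2 were upregulated and 3 downregulated with sevoflurane, and 3 were upregulated and 1 downregulated with desflurane. *Zfp36*, which encodes an RNA-binding protein that destabilizes mRNA, was upregulated with both agents (2.24-fold and 2.55-fold). *Egr1* was upregulated 7.96-fold and *Dusp1* was downregulated 5.67-fold with desflurane, and their ratios with sevoflurane were 1.28 and 1.11. With exchanged controls, both were called with both agents, *Egr1* as upregulated 2.72-fold and 3.75-fold and *Dusp1* as downregulated 2.18-fold and 2.35-fold with sevoflurane and desflurane. *Jun* and *Myc* had ratios of 1.36 and 0.746 with sevoflurane and 0.609 and 0.507 with desflurane, and with exchanged controls, 0.545 and 0.486 with sevoflurane and 1.52 and 0.778 with desflurane. *Fos* was between 0.0812 and 0.653 TPM in all libraries, too low to be called.

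**Figure D5:**
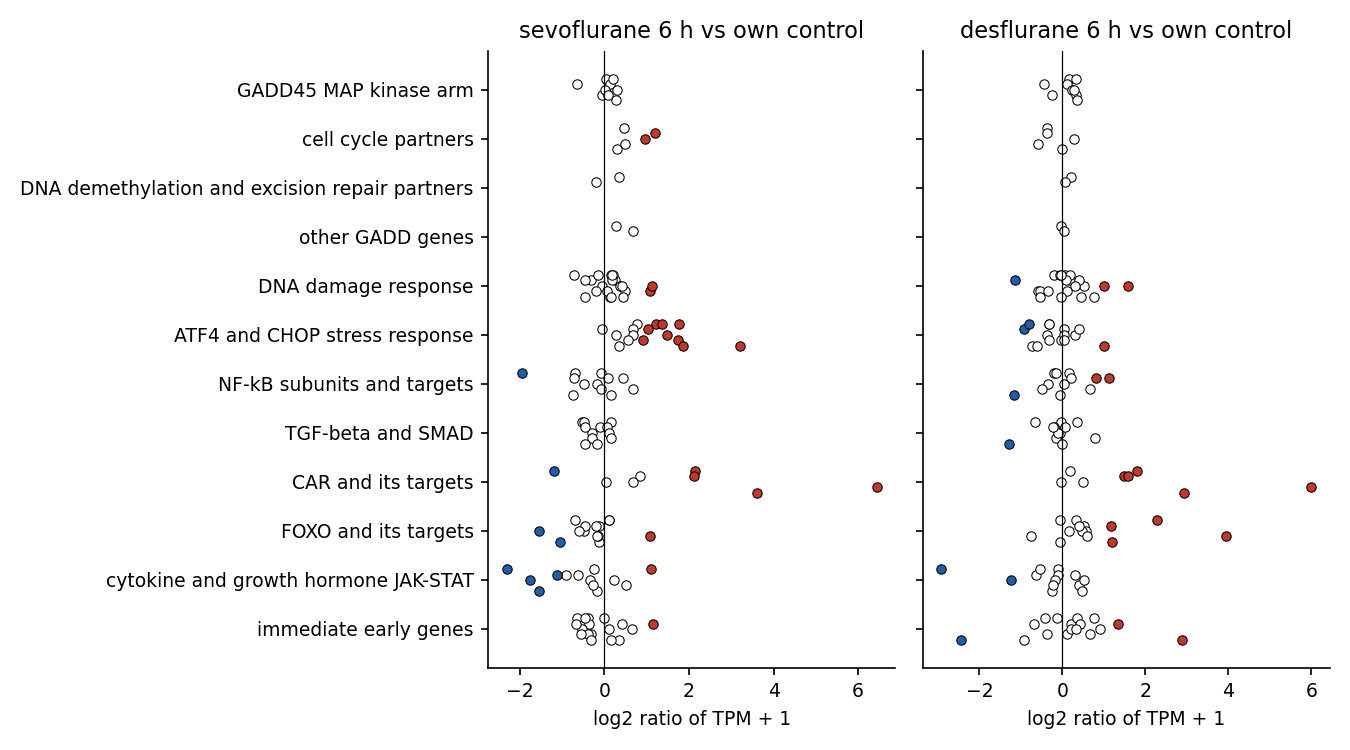
Log2 ratio of TPM + 1 to the own control for the list genes that could be called, with sevoflurane on the left and desflurane on the right. Each point is a gene (red, upregulated; blue, downregulated; white, within the limits), a gene can be in more than 1 list, and the ATF4 and CHOP list holds 9 red points with sevoflurane and 1 with desflurane.

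Markers of other cells differed between livers, and in whole liver fewer cells of a type and less RNA per cell cannot be told apart. The summed TPM of the 8 leukocyte markers found was 23.1 and 8.15 in the control and 6 h livers of sevoflurane and 17.4 and 16.8 in those of desflurane, and *Cd3g* was listed at 0 in the desflurane control. The sum of the 4 erythroid markers was 78.5, 54.8, 58.3, and 32.2 in this order, with none at 0. Like *Gadd45g*, both sums were lower in the 6 h livers than in the controls without overlap, although the leukocyte sum by little with desflurane. In the comparison of desflurane with its own control, 5 of the 8 leukocyte markers were higher and 3 were lower. The lower ones included the neutrophil genes *S100a8* and *S100a9* (0.186 and 0.246 of the control). Only 1 of the 8 markers, *Ptprc*, could be called (9.24 and 10.9 TPM in the control and 6 h livers), and none was called. *S100a8* and *S100a9* were thus at 2 TPM or lower in both livers, and their ratios rest on low values. The sum of the 6 Kupffer cell markers was 419, 239, 354, and 386, with none at 0, and it did not separate the states. The sum of the 7 pancreatic acinar markers was 51.2 in the sevoflurane control and between 15.4 and 18.5 in the other libraries, in which *Prss1*, *Ctrb1*, and *Pnlip* were listed at 0. The part of leukocyte, erythroid, and acinar RNA in the values of the Gadd45 genes was not tested. Endothelial (168 to 197), stellate and fibroblast (251 to 275), and cholangiocyte markers (14.3 to 21.0) varied less, and none of them was at 0.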

How the data were processed

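Livers of 4 rats were sequenced, with 1 rat for each condition, and samples were grouped by the treatment given in their labels. The authors trimmed the reads with sickle, mapped them to rn6 with HISAT2, sorted them with SAMtools, and ran StringTie with the refGene annotation. The labels and the paper name different Illumina kits for stranded total RNA. Deposited values are the mean coverage of a gene (a signal that is not scaled for library size) and FPKM, which the authors' StringTie run scaled for library size. The deposited TPM values are a signal scaled so that assembled rows add up to 1000000, and annotated rows are on the same scale. Annotated rows longer than 200 bp were used here, and rows that shared a symbol were added together. Genes that could be called had a TPM value higher than 2 in either library of a comparison. The amount of aligned sequence follows from how FPKM relates to coverage (the median over rows), and the precision of single values is unknown apart from the coverage.

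The members and gene lists were chosen with earlier results of these data known. Named genes are the members, the 5 nearest genes of each, key genes of the lists, and at most 4 called genes per list with the largest log2 ratios of TPM + 1. A few genes that meet it are not reported here. *Colq*, the cell markers, *Tdg*, *Ing1*, and *Onecut1* are outside this rule and were named with their values known. Promoters of all 3 members matched RefSeq by symbol, and motifs were chosen after these sequences were seen. The code for calls was tested on simulated data, which says nothing of the spread between rats. Alternatives covered the TPM limit, a pseudocount, scaling, FPKM, the control, assembled rows, and short rows. Python 3.11.15, numpy 2.4.6, pandas 2.3.3, and matplotlib 3.10.9 were used.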

Additional observations from a re-analysis of the deposited data

Results flagged for a closer look

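*Gadd45a* moved in opposite directions with the agents. Its ratio to its own control was 1.75 with sevoflurane and 0.586 with desflurane, with 1 liver per state. This difference was not tested, and neither ratio passed the 2-fold limit. The desflurane control was 2.66-fold above the sevoflurane control, and the 6 h livers differed by a ratio of 0.891.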

How the results depend on the processing

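*Gadd45b* and *Gadd45g* kept their direction and their calls under all 8 alternatives with both agents, which were the TPM limits of 1 and 5, a pseudocount of 1 TPM, median-of-ratios scaling, FPKM, the control of the other agent, the mean of both controls, and addition of assembled rows (which counts the same reads again). The TPM limits could not change these results, since they do not enter the fold and the higher states of both genes were above 5 TPM. The choice of control could not change the calls either, since the states were apart by 7.54-fold for *Gadd45b* and 8.36-fold for *Gadd45g*. Median-of-ratios factors of 0.963 to 1.05 were too small to change them. *Gadd45b* ranged from 5.21-fold to 12.8-fold higher with sevoflurane and from 9.40-fold to 16.0-fold higher with desflurane. *Gadd45g* ranged from 7.16-fold to 18.9-fold lower with sevoflurane and from 17.7-fold to 43.8-fold lower with desflurane. *Gadd45a* was reversed by the control of the other agent (0.657 with sevoflurane, 1.56 with desflurane) and, with sevoflurane, by the mean of both controls (0.956). With the control of the other agent, 12 list genes in place of 7 were downregulated with sevoflurane, and 2 symbol families in place of 1 had opposite calls with each agent (*Tnfrsf1* with sevoflurane and *Ppp1r3* with desflurane were added). With a TPM limit of 1, 2 families had opposite calls with sevoflurane and 3 with desflurane (*Pde4* with both and *Clec4* with desflurane). The Gadd45 family was among them in each case. No paired analysis was possible because each condition has 1 library. Depth limits the low states of *Gadd45b* and *Gadd45g*, and no replicate could be left out.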
